A study of Mus musculus with 17 samples.

Results

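Matrix metalloproteinases and the inhibitor gene Timp1 were followed across mouse mammary tumours and normal mammary tissue. The 10 genes were chosen by name: Mmp3, Mmp8, Mmp10, Mmp12 and Mmp13, which lie together on chromosome 9, and Mmp2, Mmp9, Mmp11, Mmp14 and Timp1, which lie on 5 other chromosomes. Each was read from 1 probe set that carries its symbol alone, out of 19938 genes measured in this way. Levels are log2 values on Affymetrix Mouse Gene 1.0 ST arrays, with 1 array per sample and 17 arrays in all. Precision is set by the number of arrays.

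The mice of all groups were of mixed strain background. Tumours called Rb/p53 (n = 9) are labelled as deleted for Rb and p53, which encode the retinoblastoma protein and the tumour suppressor p53. In 7 of them Cre recombinase was driven by the promoter of the mouse mammary tumour virus, here MMTV-Cre. This promoter is active in mammary epithelium and in some other tissues. In the other 2 Cre was delivered by adenovirus (Ad-Cre, given in full as Ad-CMVcre). MMTV-Cre replicate 1 came from a nulliparous mouse and replicate 2 from a parous one, whereas replicates 3 to 7 and both Ad-Cre tumours carry the label transplant. The p53 tumours (n = 3) are MMTV-Cre tumours labelled as deleted for p53. Replicate 3 of these has a title naming the Rb/p53 model, but its source, description and tissue name p53 deletion, and it was kept with the p53 tumours. Normal mammary tissue (n = 5) was taken from animals of the Rb/p53 model. The sources used here do not give ages, deleted exons or transplant hosts. The tumours are described as independent, while no label ties each normal sample to a separate mouse, so the p-values refer to the spread among these arrays.

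Matrix metalloproteinases are zinc-dependent enzymes that cut extracellular matrix proteins, growth factor precursors and other proteases. Most are secreted as inactive proenzymes and are switched on by removal of a propeptide, often by plasmin or by another metalloproteinase, and tissue inhibitors of metalloproteinases (TIMPs) block the active enzymes. In mammary tumours they are made by cancer cells as well as by fibroblasts, macrophages and neutrophils. Several genes of the chromosome 9 cluster are known targets of the AP-1 transcription factor, which joins Fos and Jun proteins.

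Rb1, the targeted gene that encodes the retinoblastoma protein, read 9.29 to 9.92 in Rb/p53 tumours, 9.93, 10.999 and 10.27 in p53 tumours and 10.93 to 11.50 in normal tissue. Its probe set may also read exons outside the deleted part, so these levels do not check each label, and Trp53 was not analysed here. One array, that of p53 replicate 2, lay apart from the rest. Over all probe sets its correlation with each other array was 0.888 to 0.915, whereas every other pair reached at least 0.929, and its interquartile range was 2.39 against 2.91 to 3.18 on the others. For the 10 genes, results that rest on it are given with and without it. Counts and fitted differences of the marker lists and other gene lists in p53 tumours all include it. The 25th percentile of probe sets lay between 6.37 and 6.80 on the 17 arrays and served as a bar for values near background. Of the 170 member values 6 were below it, all of Mmp8. The mean of 10 epithelial markers was 10.84 to 11.09 in normal tissue, 8.31 to 9.81 in Rb/p53 tumours and 8.33 to 9.26 in p53 tumours, and that of 8 adipocyte markers was 12.52 to 13.02, 7.36 to 8.45 and 7.39 to 8.18 in the same order. In such bulk samples, fewer cells of a type and less RNA per cell cannot be told apart.

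The bases just before the start sites of the chromosome 9 genes are shown because these genes tended to be high on the same arrays and because AP-1 has long been tied to their promoters. RefSeq promoter windows on GRCm38.p6 were found for 8 of the 10 genes. Mmp2 and Mmp9 had no entry, and Mmp12 had 2 start sites, of which the second is shown. All windows shown lie on the plus strand and cover 250 bases, the last of which, position -1, precedes the start site. Capitals mark the letters TGANTCA, the AP-1 motif, searched on both strands.
Mmp13 (chr9:7272264-7272513, plus strand): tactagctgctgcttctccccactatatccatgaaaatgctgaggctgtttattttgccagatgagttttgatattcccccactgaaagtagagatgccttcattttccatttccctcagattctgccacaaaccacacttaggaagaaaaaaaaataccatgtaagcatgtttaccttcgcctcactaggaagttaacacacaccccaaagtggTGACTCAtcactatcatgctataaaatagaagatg
Mmp3 (chr9:7445572-7445821, plus strand): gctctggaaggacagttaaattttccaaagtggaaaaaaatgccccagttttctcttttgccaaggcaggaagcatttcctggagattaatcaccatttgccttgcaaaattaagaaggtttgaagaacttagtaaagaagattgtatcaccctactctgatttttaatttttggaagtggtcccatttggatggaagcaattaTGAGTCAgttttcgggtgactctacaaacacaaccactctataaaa
Mmp10 (chr9:7502092-7502341, plus strand): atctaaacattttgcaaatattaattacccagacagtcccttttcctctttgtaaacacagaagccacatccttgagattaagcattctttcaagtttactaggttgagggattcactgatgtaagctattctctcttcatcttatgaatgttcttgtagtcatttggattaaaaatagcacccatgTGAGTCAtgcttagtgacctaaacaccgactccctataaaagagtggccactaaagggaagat
Mmp12 (chr9:7347124-7347373, plus strand): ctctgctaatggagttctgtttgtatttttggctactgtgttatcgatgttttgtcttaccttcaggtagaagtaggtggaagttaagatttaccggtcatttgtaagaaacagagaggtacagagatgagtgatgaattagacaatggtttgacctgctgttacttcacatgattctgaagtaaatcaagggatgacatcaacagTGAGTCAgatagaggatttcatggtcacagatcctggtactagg
Mmp8 (chr9:7558179-7558428, plus strand): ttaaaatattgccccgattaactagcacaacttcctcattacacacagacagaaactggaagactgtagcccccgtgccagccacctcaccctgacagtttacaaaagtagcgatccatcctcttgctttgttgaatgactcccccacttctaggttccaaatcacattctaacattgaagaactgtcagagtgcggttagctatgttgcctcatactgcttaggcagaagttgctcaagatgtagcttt

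TGANTCA was found in 6.75% of the 32851 promoter windows of the same length. It stood at positions -35 to -29 in Mmp13, -46 to -40 in Mmp3, -63 to -57 in Mmp10 and -44 to -38 before the second start site of Mmp12. The windows of Mmp8, Mmp11, Mmp14 and Timp1, and that of the first start site of Mmp12, did not hold these letters. The letters TATAAA of a TATA box, searched on the gene's own strand and present in 7.59% of windows, began at -16 in Mmp13, -7 in Mmp3 and -29 in Mmp10. AGGAAG, a core of sites for ETS factors, was found on either strand in 29.5% of windows and in those of Mmp13, Mmp12 (first start site), Mmp3, Mmp8, Mmp14 and Timp1. ACCACA, a core of sites for Runx factors, was found in 14.0% of windows and in those of Mmp13 and Mmp14. GGAATG, a core of sites for the TEAD partners of Yap1, was found in 12.6% of windows and only in that of Timp1 among these genes. None of these motifs overlaps another within the windows of the 8 genes. A match of letters is a description of the window and does not show that a factor binds there.

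Both tumour genotypes were compared with normal tissue to see which of these genes differ in tumours. Rb/p53 tumours had higher levels of 6 of the 10 genes (limma, adjusted p below 0.05), namely Mmp13, Timp1, Mmp8, Mmp14, Mmp9 and Mmp12, and lower levels of 0. Over all genes 27.6% passed in either direction and 14.2% were higher. The p53 tumours had higher levels of 5 genes, namely Mmp13, Mmp12, Mmp8, Mmp10 and Timp1, and a lower level of 1, Mmp2, where over all genes 20.4% passed, 8.34% higher and 12.1% lower. Both comparisons use the same 5 normal arrays, so the values stand side by side and no overlap is counted. Among the chromosome 9 genes 3 of 5 passed in Rb/p53 tumours, with a median log2 difference of 1.65, and 4 of 5 passed in p53 tumours, with a median of 2.91. The median of 1.65 is the value of Mmp8, which was near background, below the 25th percentile, on all 5 normal arrays. That median is therefore not exact. Among the other 5 genes, 3 passed in Rb/p53 tumours (median 0.75), while in p53 tumours 1 passed as higher and 1 as lower (median 0.18). The median log2 difference over all genes was 0.03 in Rb/p53 and 0.09 in p53 tumours.

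**Figure D1:**
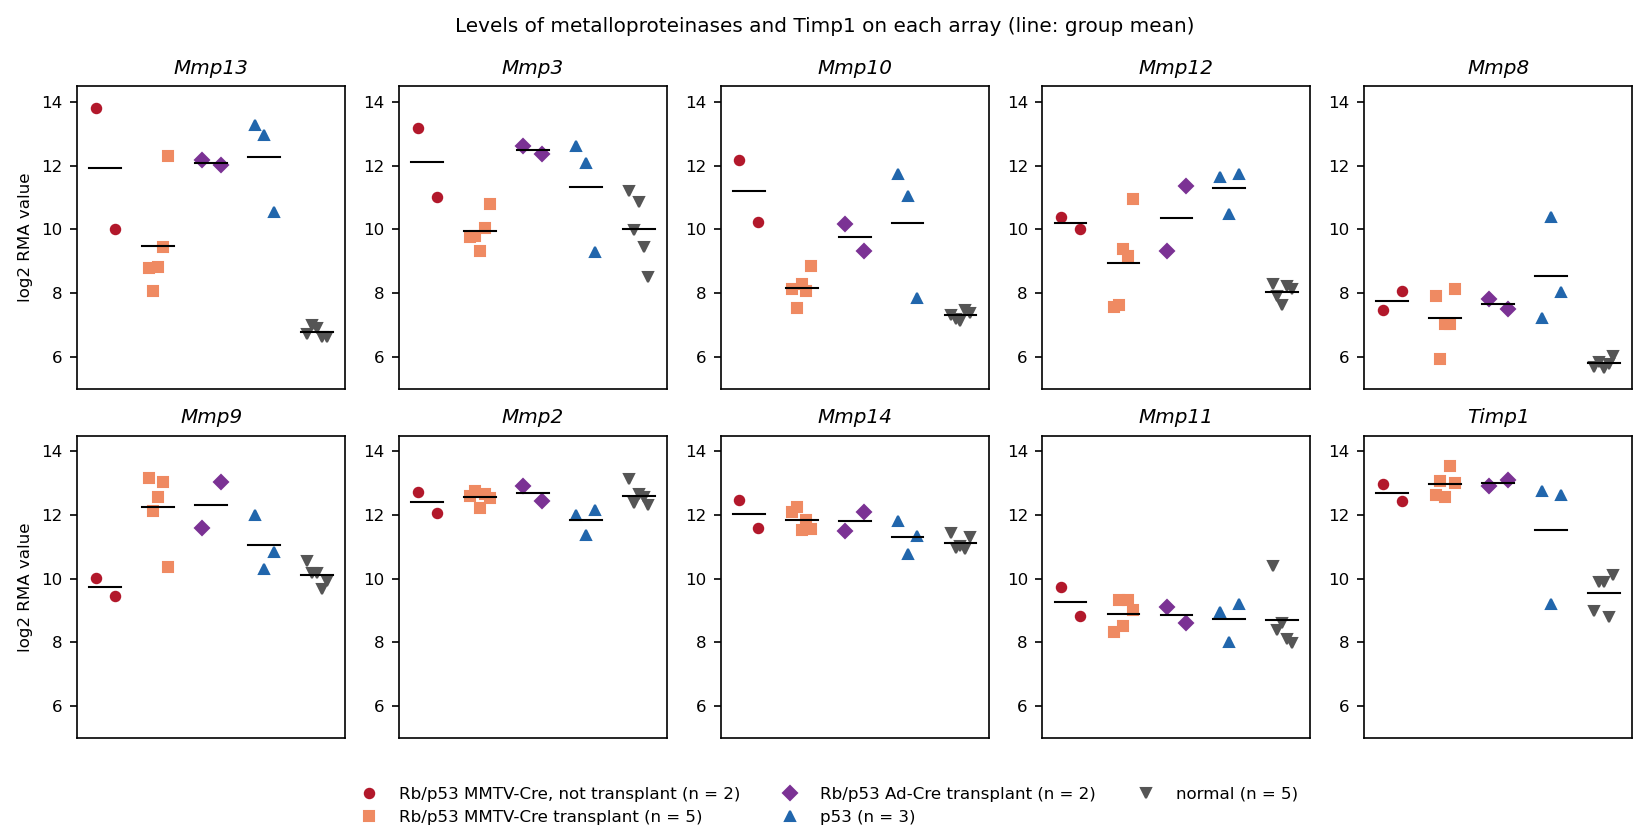
Log2 levels of the 10 genes on each of the 17 arrays, 1 panel per gene, with points split by group along the horizontal axis and a line at each group's mean. Mmp13 lies between 8.07 and 13.82 in Rb/p53 tumours and between 6.61 and 6.99 in normal tissue, without overlap, whereas Mmp2 lies between 12.06 and 12.91 in Rb/p53 tumours and 12.31 and 13.14 in normal tissue.

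Mmp13, a collagenase that cuts fibrillar collagen, read 6.71, 6.99, 6.89, 6.62 and 6.61 in normal tissue. Its level in Rb/p53 tumours ran from 8.07 through a median of 9.999 to 13.82, and the p53 tumours read 13.29, 12.97 and 10.53. All 12 tumours were above all 5 normal samples. The highest Rb/p53 tumour was MMTV-Cre replicate 1, followed by MMTV-Cre replicate 7 at 12.30 and the Ad-Cre tumours at 12.17 and 12.01, while the remaining MMTV-Cre tumours lay at or below 9.999. Mmp13 rose by 3.84 ± 0.83 (log2 difference ± SE) in Rb/p53 tumours, with an adjusted p of 0.00231, and by 5.50 ± 1.09 in p53 tumours, with an adjusted p of 0.00169. The latter was the highest log2 difference of all 19938 genes in p53 tumours, and it was 5.14 (adjusted p = 0.00906) without p53 replicate 2. Both calls held under all alternatives run for them, 28 and 27 in number. With a stricter bar at the 40th percentile all 5 normal values would lie below it, and Mmp13 would be at least 10.1-fold higher in Rb/p53 and at least 32.1-fold higher in p53 tumours (25.1-fold without p53 replicate 2).

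Mmp8, the collagenase stored in neutrophil granules, read 5.69, 5.82, 5.64, 5.77 and 6.01 in normal tissue, below the background bar on each array. Its level in Rb/p53 tumours ran from 5.92 through a median of 7.50 to 8.13, and the p53 tumours read 7.21, 10.37 and 8.02. MMTV-Cre replicate 4 lay within the range of normal tissue and below the bar, whereas the other 11 tumours were above it, with p53 replicate 2 highest. Because normal tissue was below the bar, its mean was set at the bar for a bound. With this bar Mmp8 was at least 1.98-fold higher in Rb/p53 tumours and at least 4.25-fold higher in p53 tumours, or 2.25-fold without p53 replicate 2. With the stricter bar at the 40th percentile these bounds were only 1.13-fold, 2.42-fold and 1.28-fold, so they depend on the bar. The fitted log2 difference was 1.65 ± 0.42 (adjusted p = 0.00721) in Rb/p53 tumours and 2.75 ± 0.55 (adjusted p = 0.00184) in p53 tumours, the latter 1.83 (adjusted p = 0.00777) without p53 replicate 2. With the non-transplants as the only Rb/p53 tumours the first call was lost (1.98, adjusted p = 0.0839). The second was lost with p53 replicate 2 left out and p53 replicate 3 counted as Rb/p53 (1.43, adjusted p = 0.112).

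Neutrophil markers were read beside Mmp8. All 11 were measured, and their mean level was 6.78 to 7.20 in normal tissue, 6.82 to 8.63 in Rb/p53 tumours and 7.31, 9.69 and 7.31 in the p53 tumours. The lowest tumour mean, 6.82, was that of MMTV-Cre replicate 4 and the highest, 9.69, that of p53 replicate 2. These arrays also held the lowest and the highest tumour levels of Mmp8. Without p53 replicate 2 the highest marker mean, 8.63, was that of Ad-Cre replicate 2, where Mmp8 read its Rb/p53 median of 7.50. Mmp8 was then highest in MMTV-Cre replicate 7, at 8.13 with a marker mean of 7.67. Of these markers 4 rose and 1, Ltf, fell in Rb/p53 tumours, where 27.6% of all genes passed, and 3 rose in p53 tumours, where 20.4% did. Ltf (-2.22) read 8.13 to 11.73 in normal tissue and 6.89 to 10.41 in Rb/p53 tumours. It was the highest of the 11 on every normal array, so it lifts the marker mean there. Cxcr2 and Ngp were below the bar on every normal array. The part of the neutrophil markers in the Mmp8 result was not tested.

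Mmp3 and Mmp10 encode stromelysins, which cut proteoglycans, laminin and fibronectin and can activate procollagenases. Mmp3 was already high in normal tissue, at 11.20, 9.98, 10.86, 9.44 and 8.50. It ran from 9.33 through a median of 10.79 to 13.20 in Rb/p53 tumours and read 12.61, 12.08 and 9.29 in p53 tumours. The groups overlapped, with 6 Rb/p53 tumours and p53 replicate 3 inside the normal range and MMTV-Cre replicate 1, the Ad-Cre tumours and p53 replicates 1 and 2 above it. Neither difference passed: 1.00 ± 0.71 (adjusted p = 0.35) in Rb/p53 and 1.33 ± 0.93 (adjusted p = 0.314) in p53 tumours. 

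Mmp10 read 7.32, 7.18, 7.13, 7.46 and 7.38 in normal tissue. It ran from 7.53 through a median of 8.86 to 12.19 in Rb/p53 tumours, while p53 replicates 1 to 3 read 11.73, 11.04 and 7.85. Every tumour was above every normal sample, but MMTV-Cre replicate 4 only by a small step. In Rb/p53 tumours the difference of 1.90 ± 0.69 did not pass (adjusted p = 0.0514), although it passed under 12 of 28 alternatives. In p53 tumours Mmp10 rose by 2.91 ± 0.91 (adjusted p = 0.0320), a call lost without p53 replicate 1 (2.15, adjusted p = 0.133) or 2 (2.50, adjusted p = 0.112) and without normal replicate 1, 2 or 3 (highest adjusted p = 0.0577).

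Mmp12, the macrophage elastase, read 8.29, 7.89, 7.61, 8.22 and 8.13 in normal tissue. It ran from 7.55 through a median of 9.38 to 11.37 in Rb/p53 tumours, while p53 replicates 1 to 3 read 11.64, 10.48 and 11.75. All 3 p53 tumours and 7 Rb/p53 tumours exceeded normal tissue, whereas MMTV-Cre replicate 4, at 7.63, lay inside its range and replicate 3, at 7.55, just below it. Mmp12 rose by 3.26 ± 0.70 in p53 tumours (adjusted p = 0.00329, and 3.67 with an adjusted p of 0.00422 without p53 replicate 2). With that array left out and p53 replicate 3 counted as Rb/p53 it did not pass (3.61, adjusted p = 0.0541). In Rb/p53 tumours it rose by 1.5 ± 0.54 (adjusted p = 0.0466), but that call was lost under 16 of 28 alternatives (highest adjusted p = 0.105), among them the omission of any 1 normal sample, of either Ad-Cre tumour and of MMTV-Cre replicates 1, 2, 5, 6 or 7. The 12 macrophage markers averaged 10.22 to 10.62 in normal tissue, 10.60 to 11.83 in Rb/p53 tumours and 11.27, 12.56 and 11.97 in the p53 tumours. None of them was below the bar throughout a group. In Rb/p53 tumours 5 of them rose, where 14.2% of all genes were higher, and in p53 tumours 10 did, where 8.34% were. The part of these markers in the Mmp12 result was not tested.

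Of the gelatinases, which cut denatured collagen and basement membrane collagen, Mmp2 read 13.14, 12.38, 12.65, 12.56 and 12.31 in normal tissue. It ran from 12.06 through a median of 12.60 to 12.91 in Rb/p53 tumours and read 12.02, 11.39 and 12.15 in p53 tumours. The Rb/p53 and normal ranges overlapped almost wholly, whereas all 3 p53 tumours lay below normal tissue. Mmp2 fell by 0.75 ± 0.21 in p53 tumours (adjusted p = 0.0200), and this call did not hold when p53 replicate 2 was left out (-0.52, adjusted p = 0.111), with array weights (-0.55, adjusted p = 0.0676) and with only these groups in the fit (adjusted p = 0.0614). In Rb/p53 tumours the difference was -0.06 ± 0.16 (adjusted p = 0.866), with a 95% interval from -0.40 to 0.29.

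Mmp9, the other gelatinase, is made by neutrophils, macrophages and osteoclasts. It read 10.55, 10.19, 10.17, 9.67 and 9.94 in normal tissue and 11.998, 10.29 and 10.85 in p53 tumours. In Rb/p53 tumours it ran from 9.47 through a median of 12.14 to 13.17. The 6 high tumours, at 11.58 or more, were all transplants (MMTV-Cre replicates 3 to 6 and both Ad-Cre tumours), while MMTV-Cre replicates 1 and 2, not labelled as transplants, and transplant replicate 7 lay at 10.03, 9.47 and 10.37. Mmp9 rose by 1.61 ± 0.58 in Rb/p53 tumours (adjusted p = 0.0493). That call was lost under 18 alternatives, including the omission of any 1 normal sample, of either Ad-Cre tumour or of MMTV-Cre replicate 3, 4, 5 or 6 (highest adjusted p = 0.111), and with only the non-transplants as Rb/p53 tumours the difference was -0.35 (adjusted p = 0.686). In p53 tumours it was 0.94 ± 0.76 (adjusted p = 0.388).

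Mmp14 encodes the membrane-bound metalloproteinase MT1-MMP, which activates the proenzyme of Mmp2 at the cell surface. It read 11.43, 10.98, 11.04, 10.93 and 11.31 in normal tissue, ran from 11.51 through a median of 11.86 to 12.47 in Rb/p53 tumours, and read 11.81, 10.79 and 11.35 in p53 tumours. Every Rb/p53 tumour was above every normal sample. Mmp14 rose by 0.75 ± 0.19 in Rb/p53 tumours (adjusted p = 0.00587), a call lost only with the non-transplants as the sole Rb/p53 tumours (0.90, adjusted p = 0.0892) among the 28 alternatives. In p53 tumours the difference was 0.18 ± 0.24 (adjusted p = 0.613). Mmp11, or stromelysin 3, which is activated inside the cell by furin, read 10.42, 8.40, 8.60, 8.11 and 7.98 in normal tissue and 8.31 to 9.74 in Rb/p53 tumours. In the other tumours it read 8.95, 8.02 and 9.22, and all 3 groups overlapped, with normal replicate 1 highest of all arrays. Neither Mmp11 difference passed (0.28 ± 0.35, adjusted p = 0.638, and 0.03 ± 0.46, adjusted p = 0.974).

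Timp1, a secreted inhibitor of most metalloproteinases, read 8.998, 9.89, 9.90, 8.81 and 10.13 in normal tissue. It ran from 12.43 through a median of 12.98 to 13.54 in Rb/p53 tumours, and in p53 tumours it read 12.74, 9.22 and 12.63. Every Rb/p53 tumour and p53 replicates 1 and 3 lay above normal tissue, whereas p53 replicate 2 lay inside its range. Timp1 rose by 3.37 ± 0.44 in Rb/p53 tumours (adjusted p = 2.23e-05), the smallest adjusted p among the 10 genes, and this call held under all 28 alternatives. In p53 tumours it rose by 1.99 ± 0.58 (adjusted p = 0.0223), and by 3.14 (adjusted p = 8.11e-06) without p53 replicate 2. In p53 tumours the call did not hold without replicate 1 of that group (1.38, adjusted p = 0.114) or 3 (1.44, adjusted p = 0.0942), without normal replicate 4 (1.80, adjusted p = 0.0515) and with only these groups in the fit (adjusted p = 0.121).

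**Figure D2:**
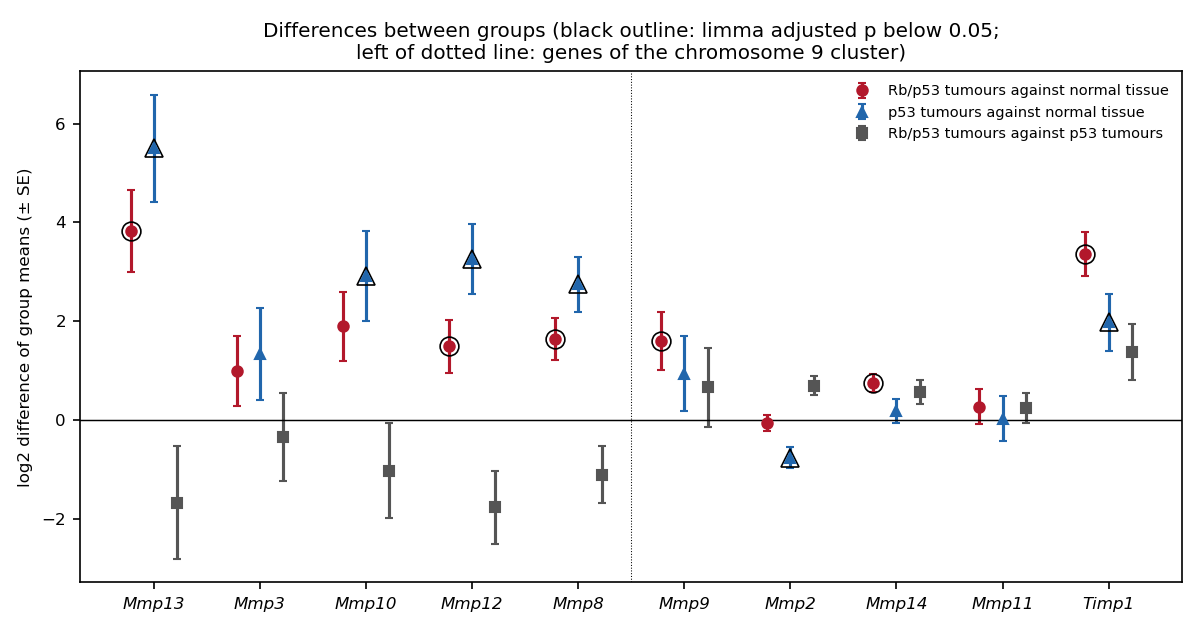
Log2 differences of group means for the 10 genes with bars of 1 SE, for Rb/p53 tumours (n = 9) against normal tissue (n = 5), p53 tumours (n = 3) against normal tissue, and Rb/p53 against p53 tumours. Outlined points passed at an adjusted p below 0.05; the differences of Mmp13 from normal tissue are 3.84 and 5.50, and no outlined point belongs to the contrast between genotypes.

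Groups that did not overlap were counted as a plain description. Every Rb/p53 tumour exceeded every normal sample for 4 of the 10 genes, Mmp10, Mmp13, Mmp14 and Timp1, where 7.9% of all genes did so. Every p53 tumour exceeded every normal sample for Mmp8, Mmp10, Mmp12 and Mmp13, all on chromosome 9, where 9.87% of all genes did so, and every p53 tumour was below for Mmp2, where 13.5% of all genes were.

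The tumour genotypes were then set against each other on the 12 tumour arrays. By limma 0 of the 10 genes passed, and over all genes 1 did (0.00502%), the MHC class II gene H2-Ea, named after its value was seen. At an unadjusted p below 0.05 stood 4 of the genes, Mmp2, Timp1, Mmp12 and Mmp14, and 4117 genes in all. Mmp12 was -1.76 ± 0.73 in Rb/p53 minus p53 tumours (adjusted p = 0.216) and Mmp13 -1.66 ± 1.15 (adjusted p = 0.376), with a 95% interval for Mmp13 from -4.15 to 0.82. Mmp8 was -1.10, Mmp10 -1.02 and Mmp3 -0.34, so that the median of the chromosome 9 genes was -1.10. The other 5 genes had a median of 0.67, from 0.25 for Mmp11 and 0.57 for Mmp14 to 1.38 ± 0.57 for Timp1 (adjusted p = 0.214), against a median of -0.03 over all genes. Without p53 replicate 2 the median was -0.60 for the chromosome 9 genes and 0.29 for the other 5, with Timp1 at 0.23, Mmp8 at -0.18 and Mmp11 at -0.10. Mmp2, at 0.70 ± 0.19 (adjusted p = 0.144), passed when p53 replicate 3 was left out (0.85, adjusted p = 0.0449) or moved to the Rb/p53 tumours named in its title (0.81, adjusted p = 0.0414). Under these settings 6.81% and 10.3% of all genes passed, and Mmp2 was the only one of the 10. Both settings keep p53 replicate 2, which had the lowest Mmp2 of all arrays (11.39). Without p53 replicate 2, 0 of the 10 genes passed. Over its 23 alternatives the Mmp2 difference ran from 0.47 to 0.85 and passed in these 2 only. No gene's tumour groups were free of overlap, where 1.67% of all genes had every Rb/p53 tumour higher and 1.47% every one lower.

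Within the Rb/p53 tumours the chromosome 9 genes and Mmp9 were the most variable of the 10. The SD over the 9 tumours was 2.01 for Mmp13, 1.47 for Mmp10, 1.42 for Mmp9 and Mmp3 and 1.33 for Mmp12, each above that of 99.2% of genes or more, where the median gene had 0.19. Mmp8 had an SD of 0.70, Mmp11 of 0.46, Mmp14 of 0.35, Timp1 of 0.33 and Mmp2 of 0.27. As the mean over the 5 chromosome 9 genes, each less its mean in normal tissue, the highest Rb/p53 tumours were MMTV-Cre replicate 1 at 3.83, Ad-Cre replicates 2 and 1 at 2.94 and 2.85, MMTV-Cre replicate 7 at 2.63 and replicate 2 at 2.29. The other 4 MMTV-Cre transplants lay between 0.22 and 1.17. The p53 tumours had 3.72, 3.82 and 1.92. For the other 5 genes the same mean was between 0.46 and 1.67 in Rb/p53 tumours and was 1.08, -0.47 and 0.82 in p53 tumours.

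As a description of these 9 tumours, Pearson's r within the chromosome 9 genes had a median of 0.57 over 10 pairs, from 0.37 to 0.90. The highest was that of Mmp3 with Mmp13 (r = 0.90), followed by Mmp3 with Mmp10 (r = 0.87). Within the other 5 genes the median over 10 pairs was 0.36 (from -0.42 to 0.60), and across the 2 sets it was 0.06 over 25 pairs (from -0.68 to 0.43). The lowest of these was that of Mmp9 with Mmp10. These correlations between members come from tumours of differing cell content, so none of them is given a p.

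The labels separate transplants from other MMTV-Cre Rb/p53 tumours and Ad-Cre from MMTV-Cre transplants, and these contrasts were fitted on the 9 Rb/p53 arrays. In transplants (n = 5) against the other MMTV-Cre tumours (n = 2) 0 of the 10 genes passed by limma, and 4 of all genes did (0.0201%). Those lower (0.015%) were Jchain, Igkv6-20 and another immunoglobulin kappa variable gene, and Peg10, an imprinted gene, was higher (0.00502%), all named after their values were seen. At an unadjusted p below 0.05 stood 3 of the 10 and 1394 genes in all. Mmp10 read 12.19 and 10.22 in the non-transplants and 8.12, 7.53, 8.28, 8.05 and 8.86 in the transplants, without overlap (-3.04 ± 0.53, unadjusted p = 0.000411, adjusted p = 0.313). Mmp3 was likewise without overlap, at 13.20 and 11.01 against 9.33 to 10.79 (-2.16 ± 0.56, adjusted p = 0.665). Mmp9 went the other way without overlap, at 10.03 and 9.47 against 10.37 to 13.17 (2.51 ± 0.74, adjusted p = 0.665). Over all genes 5.46% were lower and 8.8% higher without overlap, beside 2 and 1 of the 10. The non-transplants are 1 tumour from a nulliparous and 1 from a parous mouse, so a difference by parity cannot be told apart from one between single tumours.

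Ad-Cre transplants (n = 2) differed from MMTV-Cre transplants (n = 5) in 0 of the 10 genes and in 0 of all genes by limma (percent called 0), with 2 of the 10 and 1040 of all genes at an unadjusted p below 0.05. Mmp3 read 12.63 and 12.37 in Ad-Cre tumours, above all MMTV-Cre transplants (2.55 ± 0.56, unadjusted p = 0.00171, adjusted p = 0.815). Mmp10 was 1.58 ± 0.53 and Mmp13 2.61 ± 1.25, both with an adjusted p of 0.815. Without overlap, 2 of the 10 were higher, Mmp3 and Mmp10, and 0 lower, where 3.84% of all genes were higher and 7.18% lower. The chromosome 9 genes had a median of 1.58 and the other 5 genes of 0.03 in this contrast, against -0.03 over all genes.

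Yap1, the transcriptional coactivator of the Hippo pathway, lies on chromosome 9 close to the metalloproteinase cluster in RefSeq's gene order, with Mmp7, Tmem123, Birc2 and Birc3 among the genes between them. Its level in Rb/p53 tumours was 13.51 in MMTV-Cre replicate 1, 13.46 in replicate 7 and 12.15 in Ad-Cre replicate 1, and 10.11 to 10.75 in the other 6. Normal tissue read 10.02 to 10.44, and the p53 tumours read 10.62, 8.08 and 10.43. Yap1 itself did not pass in Rb/p53 against normal tissue (1.02 ± 0.62, adjusted p = 0.259). The largest gap between neighbouring Yap1 values was 1.41, or 41.4% of their range, so the 9 tumours were taken as 1 series rather than as separate clusters.

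Mmp13 followed Yap1 across the 9 Rb/p53 tumours with r = 0.865 (exact permutation p = 0.000176) and Spearman's rho of 0.900 (exact permutation p = 0.00203). Without MMTV-Cre replicates 1 and 7, farthest from the median, r was 0.788 (n = 7, exact permutation p = 0.00814), and in the 6 tumours below the gap it was 0.870 (exact permutation p = 0.0569). The latter rested on Ad-Cre replicate 2. The other 5 of these tumours had Yap1 between 10.11 and 10.30 and, as a description, r of 0.233. Of the 7 tumours only the Ad-Cre ones had Yap1 above 10.30 (12.15 and 10.75), and they had the highest Mmp13 (12.17 and 12.01). With n = 7, r therefore cannot be told apart from a difference between Ad-Cre and MMTV-Cre tumours. The permutations treat tumours as exchangeable, although these differ in Cre source, transplant label and cell content. The relation of Mmp13 with Yap1 was 1 of 10 computed, with 2-sided tests. The slope was 1.22 ± 0.23 log2 units of Mmp13 per log2 unit of Yap1, which did not pass over all genes (limma, adjusted p = 0.249), and in its 18 alternatives it ran from 0.91 to 1.46 with adjusted p from 0.0656 to 0.946. None of the 10 genes passed for the slope (0), where 8 of all genes did (0.0401%) and 3 of the 10 and 1218 of all genes had an unadjusted p below 0.05.

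Mmp3 had r = 0.641 with Yap1 (exact permutation p = 0.0594, rho = 0.650 with exact p = 0.0666). Without MMTV-Cre replicates 1 and 7 its r was 0.777 (n = 7, exact permutation p = 0.0165). Among these 7 the Ad-Cre tumours also had the highest Mmp3, at 12.63 and 12.37, so the limit given for Mmp13 holds here too. Mmp10 had r = 0.637 (exact permutation p = 0.0626, rho = 0.550 with exact p = 0.133) and 0.599 without MMTV-Cre replicates 1 and 7 (exact permutation p = 0.112). For Mmp12 r was 0.529 (exact permutation p = 0.127, rho = 0.600 with exact p = 0.0968) and for Mmp8 0.401 (exact permutation p = 0.294, rho = 0.267 with exact p = 0.493), with 0.2445 and 0.3521 without them. The slopes of these 4 genes lay between 0.20 and 0.65, and the median slope of the chromosome 9 genes was 0.64, while that of the other 5 was 0.04. Mmp9 had r = -0.561 (exact permutation p = 0.125, rho = -0.250 with exact p = 0.521), which was -0.0573 without MMTV-Cre replicates 1 and 7 and so rested on them. The other 4 genes had r from 0.0634 for Mmp14 to 0.502 for Mmp11, with exact permutation p from 0.173 to 0.862.

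**Figure D3:**
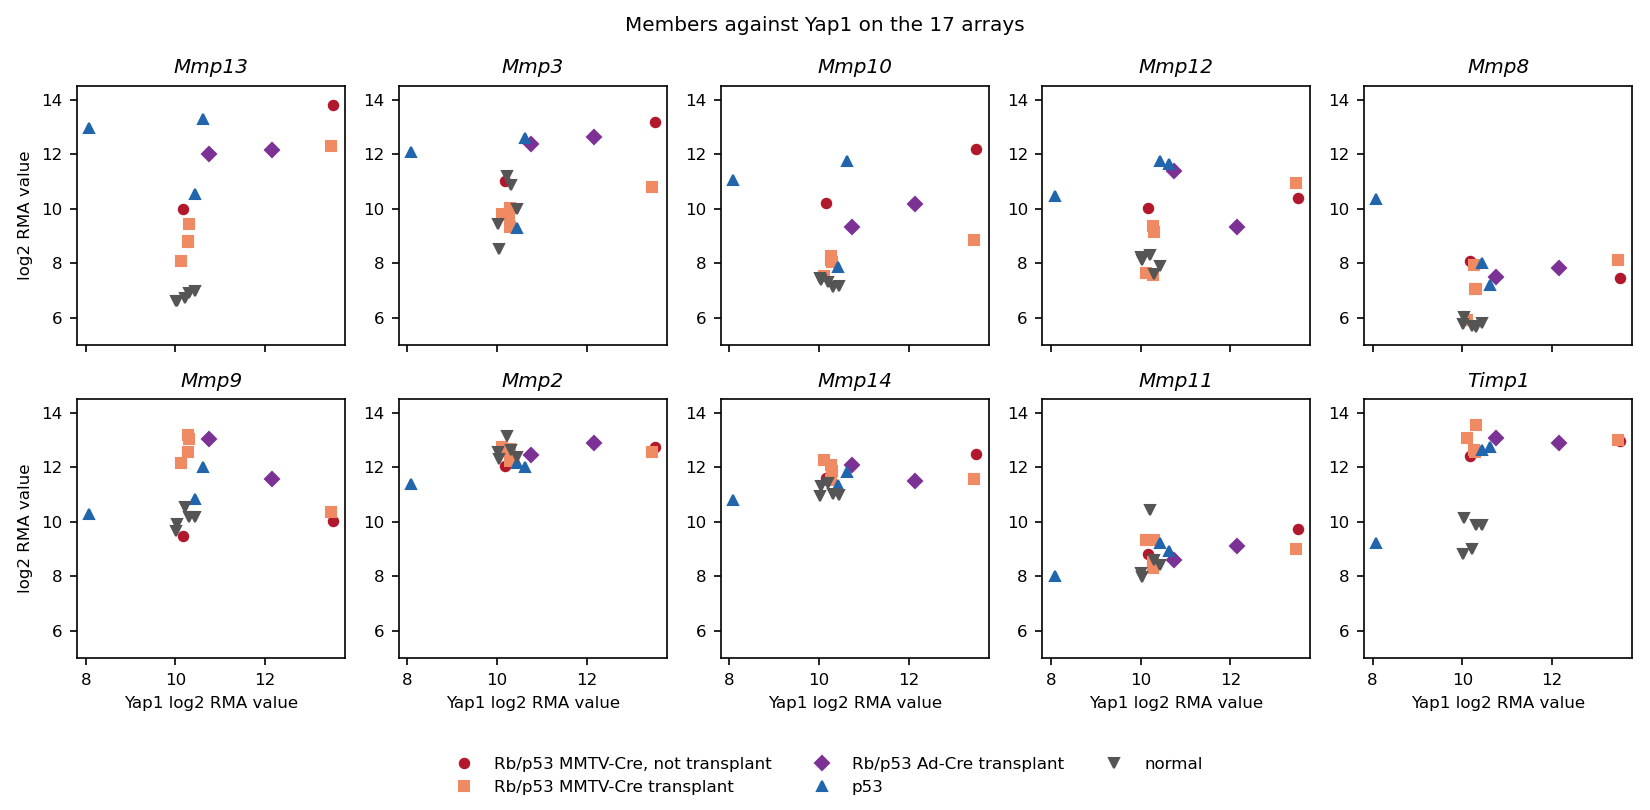
Log2 level of each of the 10 genes (vertical axis) against that of Yap1 (horizontal axis) on the 17 arrays, coloured and shaped by group. The Rb/p53 tumours with Yap1 at 12.15 or more have Mmp13 at 12.17 or more, but p53 replicate 2 has Mmp13 at 12.97 with Yap1 at 8.08.

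High Mmp13 was also found without high Yap1. Ad-Cre replicate 2 read 12.01 for Mmp13 at a Yap1 level of 10.75, p53 replicate 1 read 13.29 at 10.62, and p53 replicate 2 read 12.97 at 8.08, the lowest Yap1 level of all arrays. With all 12 tumours in the fit and genotype as a covariate the Mmp13 slope was 0.91 (limma, adjusted p = 0.776), and 1.23 (adjusted p = 0.348) without p53 replicate 2, the latter an alternative chosen after seeing the data.

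The genes around the cluster were followed array by array, as levels minus the mean of normal tissue. MMTV-Cre replicates 1 and 7 were high for several genes at both flanks of the cluster, but not for all genes of the region. Birc2, an inhibitor of apoptosis, was at 3.64 and 3.60, its neighbour Birc3 at 2.63 in both, Tmem123 at 1.51 and 1.40, Dcun1d5, on the far side of the metalloproteinases, at 3.10 and 3.02, and Dync2h1, a motor protein of cilia, at 4.08 and 4.23. Ad-Cre replicate 1 had 1.68 for Birc2, 1.36 for Birc3, 0.93 for Tmem123 and 2.54 for Dcun1d5, but 0.47 for Dync2h1. Other genes of the region were not high throughout. In MMTV-Cre replicates 1 and 7 Pdgfd was at 1.66 and 0.16, Trpc6 at 0.04 and -0.05 and Mmp27 at -0.42 and -0.07. In Ad-Cre replicate 1 these genes were at -0.004, -0.33 and -1.28. Over the 9 tumours the slopes on Yap1 of Birc2 (1.20 ± 0.04), Birc3 (0.79 ± 0.03), Dcun1d5 (0.86 ± 0.08) and Tmem123 (0.55 ± 0.05) passed (highest adjusted p = 0.00602), 4 of the 19 neighbours tested, of which 15 had an unadjusted p below 0.05. The calls outside this list were Cep126, Cfap300, Pcdh11x and the aggrecanase Adamts5 (0.71 ± 0.08, adjusted p = 0.0295), named after their values were seen except Adamts5. The neighbours were chosen by name. Whether Cep126, Cfap300 or Pcdh11x lie in the same region was not examined.

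Inside the cluster the same tumours did not stand alone. In Mmp13, MMTV-Cre replicates 1 and 7 were 7.06 and 5.54 above normal tissue, but Ad-Cre replicates 1 and 2 were 5.403 and 5.25 and p53 replicates 1 and 2 were 6.52 and 6.21 above it. In Mmp10 MMTV-Cre replicate 7 was 1.57 above normal tissue, lower than replicate 2 (2.92), Ad-Cre replicate 1 (2.88) and p53 replicates 1 and 2 (4.44 and 3.75). The interstitial collagenase genes Mmp1b and Mmp1a, next to Mmp3, were below the background bar on all 5 normal arrays and on 10 and 9 of the 12 tumour arrays. Above it were Mmp1b at 6.84 and 6.83 in MMTV-Cre replicates 1 and 7, and Mmp1a at 7.30 and 7.23 in the same tumours and 7.06 in Ad-Cre replicate 2. Mmp7, matrilysin, which lies on the Yap1 side, was at 2.06 in replicate 1, 0.94 in replicate 7 and within 0.42 of normal tissue in every other tumour. Beyond the flanks, Casp1, Casp4 and Casp12, inflammatory caspases, were at 3.52, 3.61 and 3.72 in MMTV-Cre replicate 1. They were at 1.69, 1.73 and 1.76 in MMTV-Cre replicate 7 and at 1.43, 1.61 and 1.35 in Ad-Cre replicate 1. In the other tumours these genes lay between -1.15 and 1.59. Pgr, the progesterone receptor, on the far side of Yap1, was below normal tissue in 11 of 12 tumours.

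**Figure D4:**
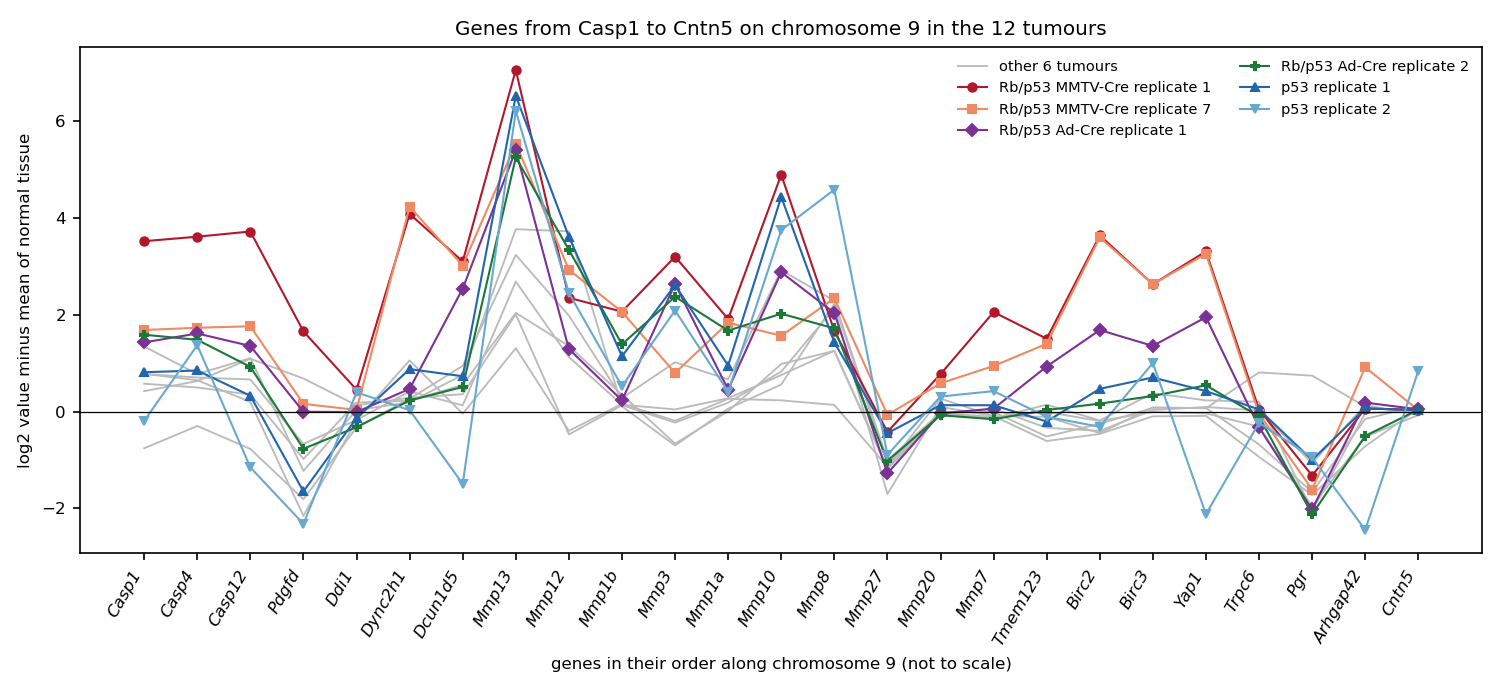
Log2 level minus the mean of normal tissue for 25 genes from Casp1 to Cntn5, in their order along chromosome 9 and not to scale, with 1 line per tumour and 6 tumours marked; Mmp8, Mmp1a, Mmp1b, Mmp20, Ddi1 and Cntn5 were below the background bar on all 5 normal arrays, so their differences are not exact. MMTV-Cre replicates 1 and 7 are high for Dync2h1, Birc2, Birc3 and Yap1. The 6 marked tumours are those with Mmp13 more than 5 above normal tissue, and in the other tumours it is 1.31 to 3.77 above.

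For Mmp9 the genes with the most similar levels over the 9 Rb/p53 tumours were Acp5 (r = 0.971), Oscar (r = 0.957) and Numa1 (r = 0.944), and over all 12 tumours their r was 0.885, 0.912 and 0.940. Acp5 encodes the acid phosphatase TRAP of osteoclasts and macrophages, and Oscar a receptor of osteoclasts and myeloid cells. The 5 osteoclast-like markers, Acp5, Ctsk, Calcr, Dcstamp and Ocstamp, were all measured, and their mean was 8.85 to 9.02 in normal tissue and 8.81 to 9.02 in p53 tumours. Among Rb/p53 tumours it was 10.41, 10.28 and 9.96 in MMTV-Cre replicates 3 and 6 and Ad-Cre replicate 2, and 8.53, 8.29 and 8.20 in MMTV-Cre replicates 1, 2 and 7. These are the 3 highest and 3 lowest Rb/p53 tumours for Mmp9 as well. Ad-Cre replicate 1 and p53 replicate 1 had Mmp9 at 11.58 and 11.998 with marker means of 8.93 and 8.95, inside the normal range. Acp5, picked above for its similarity to Mmp9 in these tumours, is part of this mean. Ctsk, the collagen-cutting cathepsin K, ran from 8.52 to 12.55 in Rb/p53 tumours. By limma 0 of the 5 markers passed in Rb/p53 tumours against normal tissue, where 27.6% of all genes did. At an unadjusted p below 0.05, 2 of the markers were higher, beside 4047 genes in all. The part of these markers in the spread of Mmp9 was not tested.

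For Mmp12 the most similar genes were Trem1 (r = 0.950 over 9 tumours and 0.730 over 12), Ccr1 (0.942 and 0.786) and Pilrb2 (0.935 and 0.790). Trem1 and Ccr1 encode receptors of myeloid cells. For Mmp13 they were Stk17b, Adamts16 and Sco1, with r of 0.954, 0.953 and 0.952 over 9 tumours and 0.754, 0.804 and 0.065 over 12. For Mmp3 they were Mrpl16, Il7 and Grpel1 (0.932, 0.927 and 0.925, and 0.124, 0.805 and 0.486 over 12), and for Mmp10 Uso1, Ice1 and Mrpl16 (0.952, 0.937 and 0.934, and 0.101, 0.524 and -0.0276 over 12). For Mmp8 they were Isg20, Tom1 and Rab11fip1 (0.934, 0.929 and 0.929, and -0.0422, 0.934 and 0.706 over 12). Each is the highest of 19937 correlations over 9 tumours, and such values are given only as a description.

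**Figure D5:**
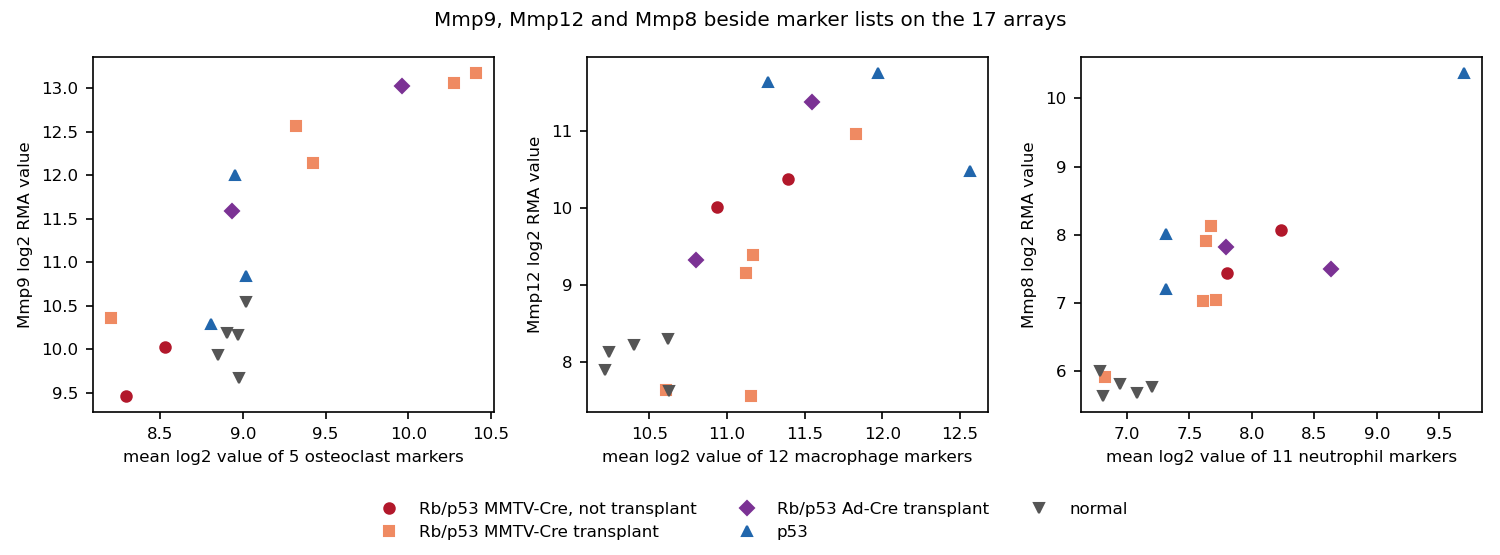
Log2 level of Mmp9, Mmp12 and Mmp8 (vertical axes) against the mean log2 level of 5 osteoclast, 12 macrophage and 11 neutrophil markers (horizontal axes) on the 17 arrays, by group. Mmp9 is above 13 on the 3 arrays whose osteoclast marker mean is at 9.96 or more. Mmp8 is highest, at 10.37, on p53 replicate 2, which has the highest neutrophil marker mean, 9.69. The next highest neutrophil marker mean, 8.63, goes with Mmp8 at 7.50.

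Of 17 other metalloproteinases and inhibitors measured, 0 passed as higher by limma and 4 as lower in Rb/p53 tumours, and likewise 0 and 4 in p53 tumours. At an unadjusted p below 0.05, 3 and 2 of them were higher and 6 and 5 lower. Counts of this and the next lists stand beside 14.2% of all genes higher and 13.4% lower in Rb/p53 tumours and 8.34% and 12.1% in p53 tumours. Timp4, an inhibitor found in adipose tissue, fell from 10.78 to 12.04 in normal tissue to 6.08 to 6.97 in Rb/p53 and 6.15 to 6.73 in p53 tumours, values around the background bar (-5.08 ± 0.19 and -5.01 ± 0.24, adjusted p = 3.35e-12 and 3.80e-10). Reck, a membrane-anchored inhibitor, fell by 1.89 ± 0.23 in Rb/p53 tumours and by 2.33 ± 0.30 in p53 tumours. Timp3, which binds to the matrix, fell by 2.09 ± 0.52 in p53 tumours (adjusted p = 0.00909) and was -1.02 ± 0.40 in Rb/p53 tumours (adjusted p = 0.0679), while Timp2 passed in neither; both were named after their values were seen. Timp1 was the only one of the 4 TIMP genes that was higher in either comparison.

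Among 15 plasminogen system and other pericellular protease genes 3 rose and 3 fell in Rb/p53 tumours, and 3 rose and 2 fell in p53 tumours. Plaur, the receptor of urokinase, rose by 2.22 ± 0.30 and 2.91 ± 0.40 and Ctss, cathepsin S of antigen-presenting cells, by 1.58 ± 0.30 and 2.36 ± 0.39. The membrane peptidases Dpp4 and Fap fell by 3.06 ± 0.33 and 1.88 ± 0.32 in Rb/p53 tumours and by 3.10 ± 0.43 and 1.51 ± 0.42 in p53 tumours. Of 15 ADAM and ADAMTS proteases 6 rose and 3 fell in Rb/p53 tumours, and 4 rose and 2 fell in p53 tumours. Adam8, a membrane metalloproteinase of myeloid cells, rose by 1.73 ± 0.36 and 2.64 ± 0.47 and Adamts4, an aggrecanase, by 1.33 ± 0.32 and 1.52 ± 0.42, whereas Adamts5, the other aggrecanase, fell by 2.24 ± 0.44 and 3.33 ± 0.57.

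Of 16 matrix proteins that metalloproteinases cut, 4 rose and 3 fell in Rb/p53 tumours and 2 rose and 1 fell in p53 tumours. Tnc, tenascin C, rose by 3.47 ± 0.50 and 4.19 ± 0.66, and Acan, aggrecan, by 3.14 ± 0.53 in Rb/p53 tumours. Fn1, fibronectin, rose by 0.52 ± 0.10 and 0.42 ± 0.12. Lama1, a laminin chain of basement membranes, fell by 1.77 ± 0.12 and 1.502 ± 0.16, and Col3a1, a fibrillar collagen, by 0.81 ± 0.29 in Rb/p53 tumours (adjusted p = 0.0433). Fibroblast markers averaged 11.34 to 11.59 in normal tissue, 10.36 to 11.57 in Rb/p53 and 10.30 to 11.54 in p53 tumours. Col1a1, Col1a2, Col3a1 and Dcn belong to both these markers and the matrix list, and Fap to these markers and the protease list. The fibroblast mean is thus not separate from those lists, and the part of these markers in the differences was not tested. Of 20 measured neighbours of the cluster on chromosome 9, 0 were higher and 2, Pgr and Mmp27, lower in Rb/p53 tumours, and 0 passed in p53 tumours, where at an unadjusted p below 0.05 5 were higher in the former and 3 lower in the latter. Between the genotypes and in both contrasts within the Rb/p53 tumours 0 genes of any of these 5 lists passed by limma, and at an unadjusted p below 0.05 no list had more than 3.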

How the data were processed

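RNA of 17 mouse samples had been hybridised to Affymetrix Mouse Gene 1.0 ST arrays. Per the submitters' processing notes, the authors used RMA in Partek 5.6, and the deposited values are log2 levels of 35556 probe sets; their direction is that of a level, genes are not centred, and other settings and the array's build are not stated. Array medians lay between 7.74 and 7.85. GEO's platform annotation gives 1 symbol for 21789 probe sets, several for 1621 and none for 12146; 21698 were matched to RefSeq by Entrez ID and 0 symbols changed. The probe set of highest mean stood for a gene, which left 19938 genes, and each of the 10 genes and Yap1 had 1 such probe set.

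Group differences and slopes were fitted with limma 3.58.1 in R 4.3.3 (lmFit and eBayes, Benjamini-Hochberg over all genes, threshold 0.05); correlations used exact permutation. Tumours were set against normal tissue on 17 arrays, genotypes on 12, and contrasts within the Rb/p53 tumours on 9. The fits were tested on simulated data. A slope on Yap1 level leaves out Yap1 itself, which gives 19937 genes.

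The 10 genes and all lists were chosen with earlier results of these data known. Named in every comparison are these 10 genes and Yap1. From 5 further lists, those with the 2 largest changes in a direction that passed are named. Of these lists 17 of 18, 15 of 17, 15 of 16, 16 of 18 and 20 of 21 genes were measured. Timp2 and Timp3 were added after their values were seen. For each of the 10, the 3 genes of highest r over the 9 Rb/p53 tumours are named. Predicted genes, small RNAs, RIKEN clones, pseudogenes and receptor or immunoglobulin segments were skipped there. Alternatives were array weights, eBayes with trend and robust, a filter on low values, cyclic loess, quantile normalization, averaging the probe sets that share a symbol, each array left out in turn and other sets of arrays. Leaving out p53 replicate 2 with p53 replicate 3 moved, leaving p53 replicate 2 out of the slope, the correlation below the largest gap in Yap1 level, medians of gene sets without a p53 replicate and bounds under other bars were chosen after seeing the data.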

Additional observations from a re-analysis of the deposited data

Results flagged for a closer look

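The level of Mmp8 in Rb/p53 MMTV-Cre replicate 4 was 5.92, far from the other 8 tumours of that genotype, of which the next lowest was at 7.04. The gap was 0.507 of the whole range of the group (n = 9), above Dixon's 95% critical value of 0.493. This value lies below the background bar of that array. The level of Mmp11 in normal replicate 1 was 10.42, above the next highest normal sample at 8.60, with a gap of 0.747 of the range (n = 5) against a critical value of 0.71. Of 33 pairs of a gene and a group examined in this way 2 were picked out, where chance picks out about 5 percent.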

How the results depend on the processing

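Of 1280 recomputed values of the 10 genes, 1176 kept their direction and their side of the threshold, 52 lost a call, 14 gained one and 38 changed sign. Each array left out in turn gave 4407 to 6725 called genes for Rb/p53 tumours against normal tissue (5503 with all arrays), of the 10 genes 4 to 7, and 3226 to 5355 for p53 tumours (4073), of the 10 genes 4 to 6. With only the non-transplants as Rb/p53 tumours 2005 genes passed and Mmp9 was -0.35. Array weights gave 0.0009 (9e-04) for Mmp2 in Rb/p53 tumours and 0.22 for Yap1 in p53 tumours. With p53 replicate 3 counted as Rb/p53 Mmp11 was -0.22 in p53 tumours, and with p53 replicate 2 left out as well Yap1 was 0.42 and 3 of the 10 genes passed in place of 6.

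Between genotypes 1 gene passed, and this count rose to 3 with array weights, to 2 with low values left out, with cyclic loess or with quantile normalization, to 356 with all 17 arrays in the fit and to 2044 with p53 replicate 3 moved. With it moved, 1 of the 10 genes passed, Mmp2. With p53 replicate 2 left out as well the count was 12, Mmp8 was 0.28 and Mmp9 was -0.37. With only the non-transplants it was 0, with Mmp3 at 0.78, Mmp10 at 0.99 and Mmp9 at -1.29. Leaving out arrays in turn gave 1 to 1358 genes (1358 without p53 replicate 3, 19 without 1 and 2 without 2 or Ad-Cre replicate 2) and 0 to 1 of the 10. For transplants against other MMTV-Cre tumours 4 genes became 2 with cyclic loess and 2 to 141 with arrays left out (141 without MMTV-Cre replicate 1, 8 without 2, and 2 without 3, 5 or 6). For Ad-Cre against MMTV-Cre transplants 0 became 2 with trend and robust, 1 with 12 arrays and 0 to 43 with arrays left out (43 without Ad-Cre replicate 1, 2 without 2). For the slope on Yap1 8 became 23 with array weights, 4 with 12 tumours, where the Mmp8 slope was -0.07 (-0.0679), 13 with MMTV-Cre tumours only and 2 to 18 with arrays left out (2 without MMTV-Cre replicate 1, 3 without 7, 18 without 3 and 14 without Ad-Cre replicate 1). In these last 3 fits 0 of the 10 genes passed with any array left out. The causes were not tested.

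Values that changed sign with an array left out passed in none of these fits. In Rb/p53 tumours against normal tissue Mmp2 ran from -0.13 to 0.08 (0.0776). In p53 tumours Mmp11 ran from -0.22 to 0.46, Mmp14 from -0.07 (-0.0658) to 0.44 and Yap1 from -0.94 to 0.33. Between genotypes Mmp3 ran from -1.35 to 0.305 and Mmp11 from -0.10 to 0.49. For transplants against other MMTV-Cre tumours Mmp2 ran from -0.18 to 0.50 (0.498), Mmp11 from -0.84 to 0.09 (0.0903), Mmp14 from -0.61 to 0.26, Timp1 from -0.014 to 0.53 and Yap1 from -2.63 to 0.72. For Ad-Cre against MMTV-Cre transplants Mmp2 ran from -0.11 to 0.35, Mmp9 from -0.68 to 0.76, Mmp11 from -0.29 to 0.20, Mmp14 from -0.35 to 0.23, Timp1 from -0.07 (-0.0651) to 0.18 and Yap1 from -0.14 to 1.27. For the slope on Yap1 Mmp14 ran from -0.12 to 0.10 (0.0985).

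No paired analysis was possible because the replicate numbers follow the order of deposition and tie no samples together. Signal near background limits Mmp8, with 6 of 17 values below the bar at the 25th percentile. With a bar at the 40th percentile 16 of the 170 values of the 10 genes lay below it in place of 6, of which 9 were of Mmp8, 5 of Mmp13 and 2 of Mmp10, the last 7 all in normal tissue. Groups of 2 and 3 tumours, a p53 array that lies apart and a title at odds with its label limit the contrasts between tumours. The labels give no batch.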

Other observations

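Markers of other cells of the mammary gland were read in the same fits. The 5 mast cell markers, among them the granule proteases Cpa3, Cma1, Mcpt4 and Tpsb2, averaged 9.78 to 10.12 in normal tissue, 6.56 to 9.56 in Rb/p53 tumours and 6.86 to 8.03 in p53 tumours, and 5 of 5 fell in both comparisons (limma). The highest tumour was Ad-Cre replicate 2 at 9.56, followed by MMTV-Cre replicate 6 at 8.33. The 6 endothelial markers averaged 10.004 to 10.27 in normal tissue, 8.97 to 9.87 in Rb/p53 tumours and 8.31 to 9.56 in p53 tumours, with 2 and 3 of them lower. The 4 skeletal muscle markers averaged 8.85 to 11.56 in normal tissue, a spread of its own, and 7.34 to 8.49 and 7.54 to 7.66 in tumours, with 4 and 2 lower. Of the 10 epithelial markers 8 and 7 fell, of the 11 fibroblast markers 3 and 1, and of the 8 adipocyte markers 8 and 8. All these counts stand beside 13.4% of all genes lower in Rb/p53 tumours and 12.1% in p53 tumours. The fibroblast count in p53 tumours, 1 of 11, is near that share.

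For the 4 remaining genes the most similar genes over the 9 Rb/p53 tumours were Dyrk1b (r = 0.941), Rab2b (0.918) and Btf3 (0.914) for Mmp2, with r of 0.149, 0.897 and 0.711 over 12 tumours. They were Cavin2 (0.945), Fam171a2 (0.941) and Olfr348 (0.934) for Mmp11, with 0.720, 0.791 and -0.150 over 12. For Mmp14 they were Arf4 (0.947), Trim38 (0.945) and Cstad (0.922), with 0.789, -0.232 and 0.863 over 12, and for Timp1 Bpi (0.941), Snx30 (0.931) and Fam181a (0.928), with 0.344, -0.0002 and -0.330 over 12. These are given as a description, being the highest of all genes left after the same skips, over few arrays.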
